A study of Gallus gallus with 2 samples.

Results

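The transcription factor ATF4, its partner factors and a handful of its direct target genes were followed in chicken DT40 cells that had lost the histone variant H2A.Z. The members were 10 genes given by symbol, 5 factors (ATF4, ATF3, ATF5, CEBPB and CEBPG) and 5 targets (CHAC1, ASNS, DDIT4, TRIB3 and SESN2), and every probe set annotated to one of these symbols was taken. This gave 10 probe sets of 7 genes out of 38535 probe sets on the array, and 6 of these genes were measured, among 9486 measured genes in all. No probe set carried the symbol ATF5, TRIB3 or SESN2 in the annotation used, so these 3 genes were not analysed here.

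DT40 is a B cell lymphoma line from the bursa of Fabricius that is widely used for gene targeting. The first of the 2 arrays was hybridised with RNA of a DT40 clone with both H2A.Z genes knocked out (H2A.Z-2 and H2A.Z-1), in which H2A.Z-2 was disrupted for good and H2A.Z-1 came only from a transgene that tetracycline shuts off, after 3 days of tetracycline. The second was hybridised with RNA of a wild-type DT40 clone, whose title names no tetracycline, so the drug, the clone and the genotype cannot be told apart. Each group is 1 array of 1 clone, without replicates, so no test could be made, no p-value is given, and the precision is limited by the number of arrays. RNA was drawn from a whole culture, where a higher level in each cell and a larger share of cells with the transcript cannot be told apart.

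ATF4 belongs to the basic leucine zipper (bZIP) family and stands at the centre of the integrated stress response. Kinases that sense missing amino acids, misfolded proteins in the endoplasmic reticulum, viral RNA or lack of haem phosphorylate the initiation factor eIF2. Most translation then slows, while upstream reading frames in the ATF4 messenger let more ATF4 protein be made. In mammals ATF4 pairs with C/EBP proteins, CEBPG among them, and switches on genes that make and import amino acids, charge transfer RNAs, change glutathione and restrain growth. ATF4 protein is thus set largely at translation, which an array of messenger levels does not measure.

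Values are MAS5 signals, a brightness on a linear scale. Levels of different probe sets are not compared, since each binds its target with its own strength. Signals under a floor of 58.3, the 50th percentile of all signals of both arrays, were set to the floor, and a fold against a floored value is a lower bound, written "at least". A log2 ratio is the knockout minus the wild-type value, and a gene was counted as higher or lower at 1.5-fold. Where a gene had 2 probe sets, the SD of the difference between their log2 ratios, divided by the square root of 2, was 0.42 (2240 genes). This probe error is that of 1 probe set and holds nothing of the spread between cultures.

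The arrays carried the targeted genotype. H2A.Z-1, annotated as H2AFZ, had a signal of 387 in the knockout and 27331 in wild type, 70.6-fold lower, and H2A.Z-2 (H2AZ2) had 17.6 in the knockout, under the floor, and 18244 in wild type, at least 313-fold lower. Whether the H2AFZ probes also detect the transgene was not examined. Of 15 B cell markers, 13 were above the floor on both arrays, among them the receptor chain CD79B with 7718 in the knockout and 8827 in wild type. The lowest ratios of the list were those of IRF8 (2182 in the knockout and 10228 in wild type, 4.69-fold lower), CD74 (2.72-fold lower), IKZF1 (2.53-fold lower) and SPI1 (2.34-fold lower). None of the 13 passed 1.5-fold upwards, beside 11.0% of all genes above the floor on both arrays, while 8 were lower by that much, beside 16.1%. The summed signal of the 13 was 34067 in the knockout and 63285 in wild type. Of 9 T cell markers, 2 were above the floor in the knockout and 5 in wild type, with CD3D giving 4162 of a summed 4355 in the knockout and 12407 of 12729 in wild type, and CD4, CD28, LCK and GATA3 under the floor on both arrays. Among markers of myeloid cells and thrombocytes 1 of 8 was measured, of erythroid cells 2 of 6, and of stroma 5 of 7. Of these listed markers, 5, 2 and 7 had a probe set. The summed signals were 106, 191 and 847 in the knockout, against 65.7, 44.3 and 735 in wild type. All summed marker signals were taken as deposited, without the floor. Both measured erythroid markers were under the floor in wild type, so their direction was fixed by the filter. The ratio of 3′ to 5′ signal was 1.95 in the knockout and 1.13 in wild type for ACTB, 1.07 in the knockout and 1.03 in wild type for GAPDH, and 1.46 in the knockout and 1.23 in wild type for EEF1A1. The part of these differences in the results below was not tested.

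Of the 6 measured members, 4 were at least 1.5-fold higher in the knockout, namely CHAC1, ATF3, CEBPG and ATF4, against a background of 12.4% of all measured genes. None was at least 1.5-fold lower, against 15.9% of measured genes. The members were chosen with earlier results of these data known, so these counts are not independent evidence of a direction. At 2-fold the count was 3 higher, without ATF4, beside 3.87% of measured genes, and 0 lower, beside 6.62%. That count was 2 when shared probe sets were left out, where CEBPG fell short, and 2 under a floor at the 75th percentile, where ATF3 did. ATF3 entered through its knockout signal alone, so its direction was fixed by the filter. Of the 5 members above the floor on both arrays, 3 were at least 1.5-fold higher, beside 11.0% of such genes, and 0 lower, beside 16.1%. The median log2 ratio was 0.99 over the 6 members and 0.016 over all measured genes. Over the 5 members above the floor on both arrays the median was 0.68. The remaining measured members, the targets ASNS and DDIT4, lay within 1.5-fold.

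**Figure D1:**
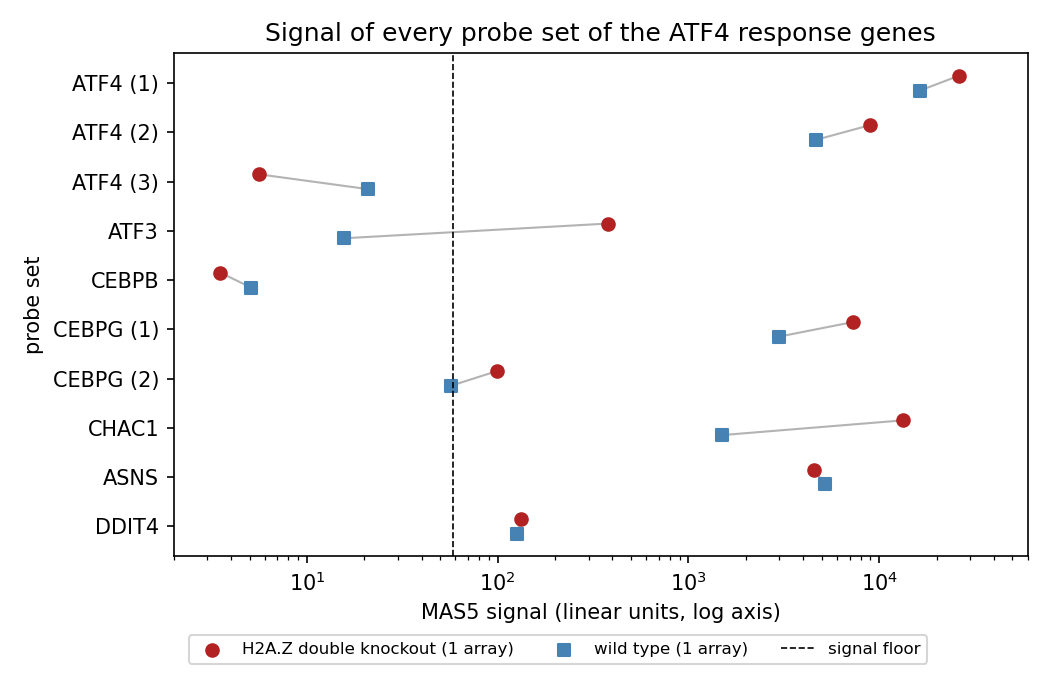
MAS5 signal (log axis) of each of the 10 probe sets, with the H2A.Z double knockout array as red circles above the wild-type array as blue squares, 1 array each, and the floor of 58.3 as a dashed line. The first 2 probe sets of ATF4, the first of CEBPG and that of CHAC1 are far above the floor on both arrays and higher in the knockout, the second of CEBPG is near the floor, ATF3 is above the floor in the knockout only, ASNS and DDIT4 barely move, and CEBPB and the third probe set of ATF4 lie under the floor on both arrays.

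ATF4 was higher in the knockout on both of its measured probe sets. The brighter, built on the RefSeq messenger, had a signal of 26118 in the knockout and 16316 in wild type, 1.60-fold higher. The second, of the type shared between transcripts (name ending in _a_at), had 8972 in the knockout and 4664 in wild type, 1.92-fold higher. Their log2 ratios of 0.68 and 0.94 differed by 0.27, less than the probe error. The third probe set, also of a shared type, had 5.61 in the knockout and 20.8 in wild type, both under the floor, so no ratio is given for it. Measured genes were split by mean brightness into 10 groups of like size, and in the brightest, of 949 genes, 5.06% were at least 1.5-fold higher and ATF4 ranked 34th from the top. Quantile normalization and loess left the brighter probe set just short of 1.5-fold, with log2 ratios of 0.56 and 0.57, while the second stayed past it at 0.89 under both.

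ATF3, a bZIP factor that is itself a target of ATF4 and mostly represses its own targets, passed the floor in the knockout and not in wild type. Its single probe set had a signal of 381 in the knockout and 15.5 in wild type. ATF3 was therefore at least 6.54-fold higher (log2 ratio at least 2.71). The size of that bound, and its place among other genes, is set by the floor. A floor at the 25th percentile gave ATF3 a log2 ratio of at least 4.56, and one at the 75th percentile, 307, gave a bound of only 0.31, which no longer reached 1.5-fold.

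CEBPG, a C/EBP protein without an activation domain of its own that forms pairs with ATF4, was the other factor at least 2-fold higher. Its bright probe set, of the type shared between transcripts, had 7334 in the knockout and 2974 in wild type, 2.47-fold higher (log2 ratio 1.30). A dim probe set on another CEBPG sequence had 98.8 in the knockout and 56.6, just under the floor, in wild type, at least 1.70-fold higher. The dim probe set entered through its knockout signal alone, so its direction was fixed by the filter and adds nothing to that of the bright one. By its bright probe set, CEBPG ranked 11th of the 948 genes in its brightness group, of which 8.97% were at least 1.5-fold higher. CEBPB, another C/EBP factor and a frequent partner of ATF4, had 3.52 in the knockout and 5.09 in wild type on its only probe set. Both values were far under the floor, so no direction can be given, and they do not show that the gene was silent.

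CHAC1, which cleaves glutathione and is one of the most sensitive ATF4 targets in mammals, had the largest ratio of the members. Its signal was 13301 in the knockout and 1493 in wild type, 8.91-fold higher (log2 ratio 3.16), on 1 probe set that is not of a shared type. Only 1 of the 9486 measured genes had a higher ratio (10 of 12063 with the floor at the 25th percentile, bounds included), and CHAC1 ranked 1st of 948 in its brightness group, the same as that of CEBPG. Its ratio was 7.60 times the probe error, and it ran from 3.11 to 3.31 over the alternatives in scaling, floor and probe set choice that gave a value for it.

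ASNS, which makes asparagine from aspartate and is a textbook target of ATF4, had 4561 in the knockout and 5193 in wild type. Its log2 ratio of -0.19 was smaller than the probe error of 0.42, and ASNS ranked 685th of the same 948 genes. The probe set is of a shared type (name ending in _s_at) and is the only one for ASNS, so a second reading is lacking. DDIT4, which restrains the growth kinase mTORC1, had a dim 133 in the knockout and 126 in wild type, a log2 ratio of 0.074. Its probe set carries a gene identifier that was not found in the reference, so its name rests on the array annotation alone. CHAC1 was therefore the only one of the 3 measured targets past 1.5-fold.

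**Figure D2:**
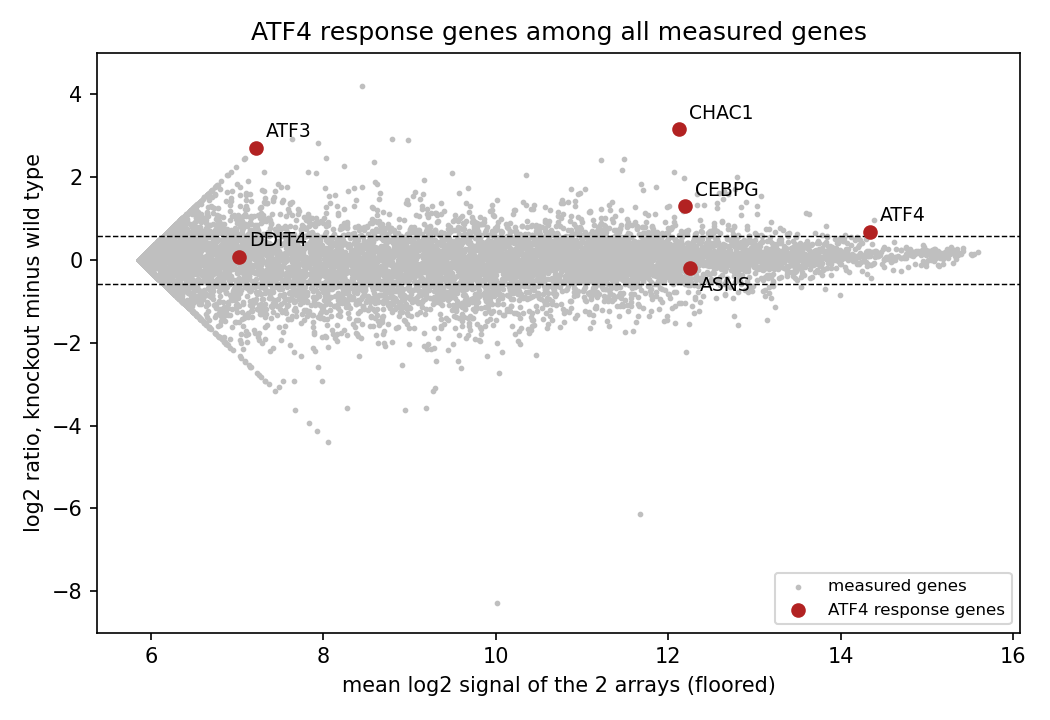
Log2 ratio, knockout minus wild type, against the mean log2 signal of both arrays for 9486 measured genes (grey), with the 6 measured ATF4 response genes in red and 1.5-fold as dashed lines. CHAC1 (3.16) stands clear of other bright genes, ATF3 (bound 2.71) lies on the diagonal edge formed by genes under the floor in wild type, and ASNS (-0.19) and DDIT4 (0.074) lie inside the main cloud.

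The genes next to the members on the chromosome had ratios on both sides of 0. On the reference assembly GRCg7b, used only for gene order, the nearest measured protein-coding gene on each side of the 6 members gave 12 neighbours, 5 above 0 and 7 below, with a median log2 ratio of -0.13. None was higher by 1.5-fold, beside 12.4% of all measured genes, and 4 were lower by that much, beside 15.9%, counts too small to tell from that background. CHAC1 lies between DLL4, a Notch ligand (67.0 in the knockout and 56.1, under the floor, in wild type), and INO80, the ATPase of a nucleosome remodeller (log2 ratio 0.36, with probe sets from -0.48 to 0.51). ATF3 lies between TMEM206 (-0.14) and NENF (-0.81, with probe sets from -1.34 to 0.30). CEBPG is flanked by PEPD, a dipeptidase (0.56 and 0.55 on its 2 probe sets, just short of 1.5-fold), and by CEBPA, its relative in the C/EBP family, which was under the floor on both arrays. The nearest measured gene on that side, LRP3, had -1.18, the lowest of the 12, followed by SDHAF3 (-1.07). SDHAF3 was the nearest measured gene before ASNS, with TAC1, which was not measured, between them. The gene before ATF4, RPS19BP1, had 0.097, and the nearest measured gene after it, MGAT3, had -0.84. DDIT4 was placed by its symbol, since the gene identifier of its probe set was not found in the reference. Its neighbours DNAJB12 (-0.17) and ANAPC16 (-0.11) are counted among the 12 on that ground alone.

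Upstream of ATF4, the eIF2 kinases EIF2AK3 and EIF2AK4 went different ways. EIF2AK1, another eIF2 kinase, had a log2 ratio of 0.23, less than the probe error of 0.42. EIF2AK2 was under the floor on both arrays. EIF2AK3 (PERK), which senses misfolded proteins in the endoplasmic reticulum, had 993 in the knockout and 327 in wild type, 3.04-fold higher on 1 probe set. EIF2AK4 (GCN2), which senses uncharged transfer RNA, had 594 in the knockout and 1157 in wild type, with log2 ratios of -0.96 and -0.43 on its 2 measured probe sets. PPP1R15B, which directs a phosphatase to eIF2, had 4279 in the knockout and 2281 in wild type, 1.88-fold higher. PPP1CA, a catalytic subunit of that phosphatase, had a log2 ratio of -0.48. PPP1R15A, a relative of PPP1R15B, had no probe set under that symbol. In the list of eIF2 kinases, eIF2 subunits and their regulators, 17 genes were measured, with a median log2 ratio of 0.21. Of the 17, 2 were at least 1.5-fold higher, beside 12.4% of all measured genes, and 1 was lower, beside 15.9%. The share of higher genes in this list lies near the background.

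In a list drawn up as bZIP factors that can pair with the members, 20 genes were measured, with a median log2 ratio of 0.42. Of these, 7 were at least 1.5-fold higher, beside 12.4% of all measured genes, and 3 lower, beside 15.9%. All 20 were above the floor in the knockout, but only 17 in wild type. The direction of the rest, such as FOS (counted among the 7), was fixed by the filter. This list too was drawn up with earlier results of the same arrays known. The 20 include CEBPZ (-0.061), which has a C/EBP symbol but is not a bZIP protein. The widest values belonged to MAFF, a small MAF protein, with 1379 in the knockout and 186 in wild type, 7.41-fold higher. BACH1, a haem-sensing repressor, had 740 in the knockout and 202 in wild type, but its 4 measured probe sets ran from 0.25 to 1.88. NFE2L1, an activator of proteasome genes, had 12751 in the knockout and 3857 in wild type, with 4 probe sets from 0.24 to 1.73. BATF, which pairs with JUN proteins in lymphocytes, had 75.2 in the knockout and 260 in wild type, 3.46-fold lower. DDIT3 (CHOP), a bZIP factor that acts with ATF4 in mammals, had no probe set under that symbol.

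The other ATF4 targets were mostly higher, unlike ASNS and DDIT4. Over the 4 target lists, 24 of 39 measured genes (61.5%) passed 1.5-fold upwards, beside 12.4% of all measured genes, and 2 (5.13%) downwards, beside 15.9%, with a median log2 ratio of 0.69. These lists were drawn up with earlier results of the same arrays known, and are not independent evidence of a direction. The list of amino acid and one-carbon enzymes had 8 of 9 measured genes higher, none lower, and the widest median, 1.45. PSPH, the last enzyme of serine synthesis, had 9287 in the knockout and 2337 in wild type, 3.97-fold higher. PSAT1, the step before it, had 3541 in the knockout and 1145 in wild type, 3.09-fold higher. ALDH18A1, which starts proline synthesis, had 6179 in the knockout and 1736 in wild type, 3.56-fold higher. GPT2, an alanine transaminase, had 614 in the knockout and 111 in wild type on its brighter probe set, with log2 ratios of 2.47 and 0.61 on both. PHGDH, the first enzyme of serine synthesis, was under the floor on both arrays.

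Amino acid transporters had 7 of 9 measured genes at least 1.5-fold higher, beside 12.4% of all measured genes, and 1 lower, beside 15.9%. Their median log2 ratio was 1.05. SLC7A5, which carries leucine and other large amino acids, had 4025 in the knockout and 1613 in wild type, and its 2 measured probe sets gave log2 ratios of 1.32 and 1.42. SLC1A4, a carrier of alanine and serine, had 5429 in the knockout and 2505 in wild type, 2.17-fold higher. SLC6A9, a glycine carrier, had 3271 in the knockout and 1456 in wild type, 2.25-fold higher. SLC7A11, the cystine carrier that feeds glutathione synthesis, had 271 in the knockout and 71.7 in wild type, but its 3 measured probe sets ran from 0.088 to 1.92.

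Genes of transfer RNA charging and translation had smaller ratios. All 15 measured genes had a log2 ratio above 0 on their brightest probe set, with a median of 0.55, beside 0.016 over all measured genes. Of the 15, 6 were at least 1.5-fold higher, beside 12.4% of all measured genes, and 0 at 2-fold, beside 3.87%. YARS, the tyrosine enzyme, had 8726 in the knockout and 4539 in wild type, 1.92-fold higher. IARS, for isoleucine, had 12869 in the knockout and 6764 in wild type, with 3 probe sets from 0.23 to 0.93. CARS, for cysteine, had 5766 in the knockout and 3542 in wild type, with both probe sets near 0.7 (0.70 and 0.73). AARS1, for alanine, had 3252 in the knockout and 1755 in wild type, but its other probe set was at -0.51, and 4 genes of the list had probe sets on both sides of 0.

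In the list of stress effectors, 3 of 6 measured genes were at least 1.5-fold higher, beside 12.4% of all measured genes, and 1 lower, beside 15.9%. The median was 0.49. STC2, a secreted glycoprotein, had 229 in the knockout and 105 in wild type, 2.18-fold higher. GADD45A, a growth arrest protein, had 5907 in the knockout and 3109 in wild type, 1.90-fold higher, and MAP1LC3B, which coats autophagosomes, had 7715 in the knockout and 4779 in wild type, 1.61-fold higher. ATG12, another autophagy protein, had 544 in the knockout and 1116 in wild type, 2.05-fold lower. Its 2 probe sets gave log2 ratios of -1.04 and -0.66. Leaving out all probe sets of shared types left ATG12 without a value, and then no gene of the list was at least 1.5-fold lower. No list median changed its sign under any of the alternatives.

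**Figure D3:**
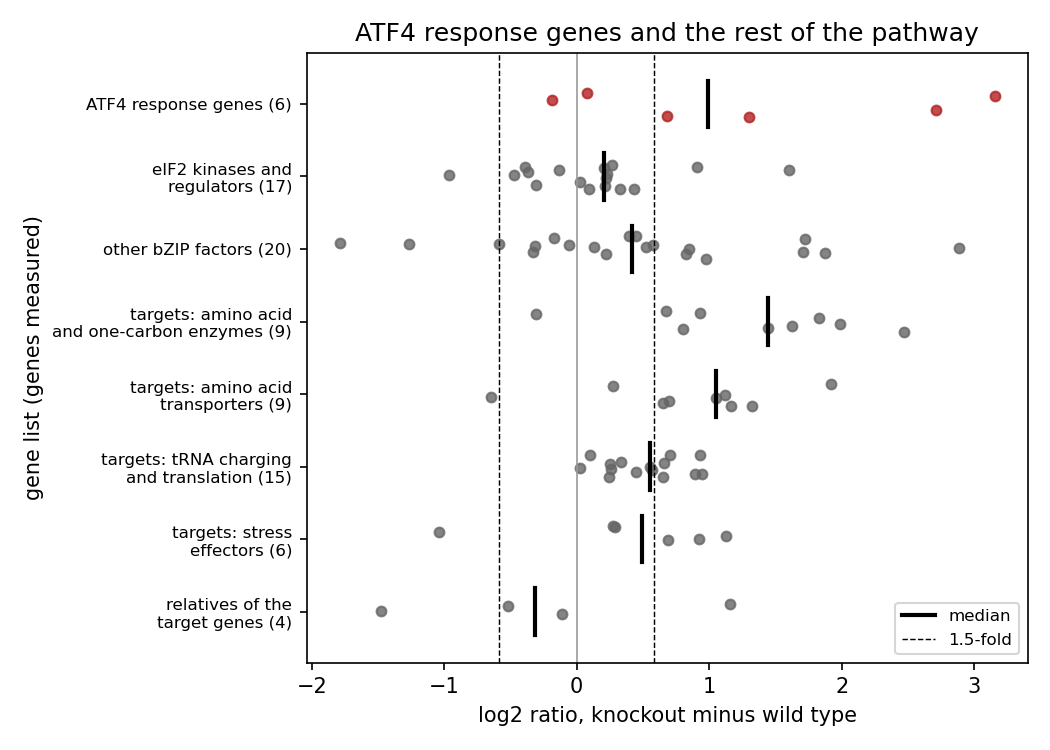
Log2 ratio, knockout minus wild type, of each measured gene (points) in the ATF4 response genes (top, red) and in 7 related lists, with list medians as black bars and 1.5-fold as dashed lines. The medians run from 1.45 for amino acid and one-carbon enzymes and 1.05 for transporters to 0.21 for eIF2 kinases and regulators and -0.32 for relatives of the target genes.

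Relatives of the targets did not move as a group. CHAC2, which shares the glutathione-cleaving activity of CHAC1, had 618 in the knockout and 277 in wild type, 2.24-fold higher on a shared probe set. TRIB2, a pseudokinase related to TRIB3, had 1500 in the knockout and 4170 in wild type, 2.78-fold lower, with all 3 probe sets between -1.67 and -0.75. SESN1, a relative of SESN2, had a log2 ratio of -0.11 with another probe set at -0.71, and ASNSD1, which carries a domain like that of asparagine synthetase, had -0.52. The values of TRIB2 and SESN1 say nothing of TRIB3 and SESN2.

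**Figure D4:**
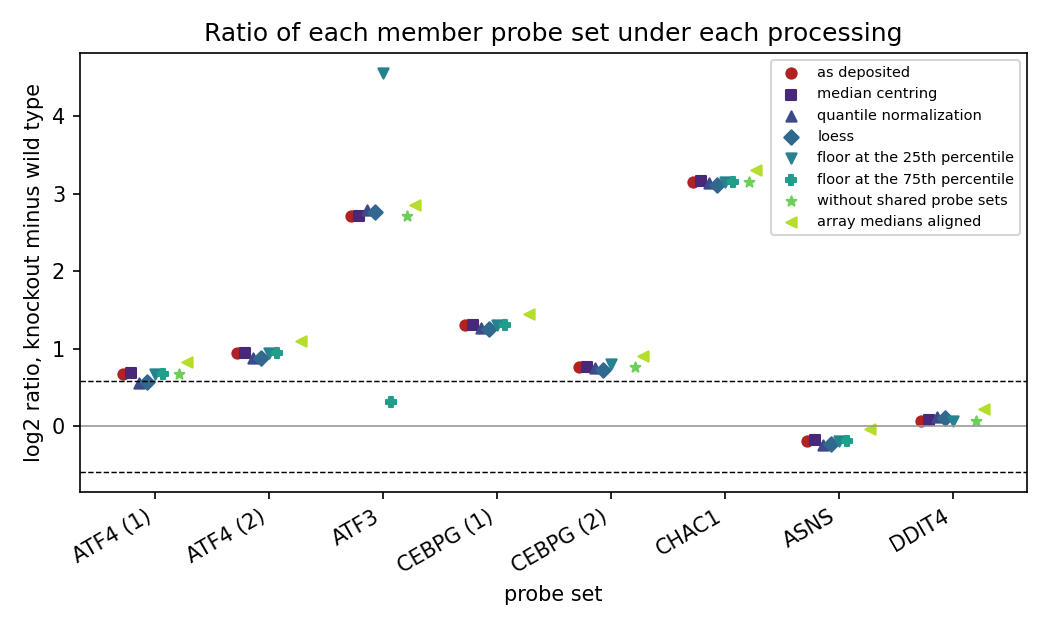
Log2 ratio, knockout minus wild type, of the 8 member probe sets above the floor on at least 1 array, as deposited (red) and under 7 alternatives that act on single probe sets (other markers), with 1.5-fold as dashed lines. CHAC1, CEBPG and the second ATF4 probe set stay past 1.5-fold, the first ATF4 probe set dips to 0.56, and ATF3 runs from 0.31 to 4.56 with the floor.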

How the data were processed

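Each value of the deposited table is an intensity on a linear scale, 1 for each probe set on each array, and per the submitters' processing notes the authors used MAS5. Its version and scaling target, and any detection calls, were not stated there. Of 38535 probe sets, 96 controls were left out, 27178 had 1 symbol in the platform annotation, 177 had several and 11180 none. Gene identifiers of 26863 were found among the RefSeq genes of GRCg7b.

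Signals were floored at the 50th percentile and taken to log2. The probe set brightest on average (log2) stood for its gene, which counted as measured where that probe set passed the floor on either array. All member probe sets are given. In each pathway list, and among the B cell markers, the 4 genes with the largest absolute ratios are named; other markers were chosen after their values were seen. Renamed AARS1 and SARS1 were matched to AARS and SARS. The members and lists were chosen with earlier results of these data known, and the ranks by brightness after seeing the values. The computation was tested on simulated data in which only genes bright in wild type were changed, so changes near the floor were not covered. Python 3.11.15, numpy 2.4.6, pandas 2.3.3 and statsmodels 0.14.6 (loess, span 0.3) were used.

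The alternatives were median centring, quantile normalization, loess, floors at the 25th and 75th percentile, the median over probe sets, leaving out probe sets of shared types (_s_at, _x_at, _a_at) and, chosen after seeing the data, aligning the arrays' medians. The medians aligned were those of probe sets brighter than the floor in knockout and wild type alike, not those of all signals.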

Additional observations from a re-analysis of the deposited data

How the results depend on the processing

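No paired analysis was possible because each group had 1 array. The median log2 ratio of the members lay between 0.68 and 1.14 over all settings, and 3 or 4 members were at least 1.5-fold higher and 0 lower in each. The count was 3 under quantile normalization and loess (without ATF4). It was also 3 under a floor at the 75th percentile (without ATF3, and DDIT4 no longer measured). ATF3 entered through its knockout signal alone, so its direction was fixed by the filter. So was that of CEBPG when shared probe sets were left out, where only its dim probe set remained. Counts over all genes depended more on the setting. As deposited, 1181 genes were at least 1.5-fold higher and 1506 lower, so that 56.0% of them were lower. The floor at the 25th percentile gave 2283 higher and 2403 lower, and at the 75th percentile 490 and 804. Aligning the arrays' medians, taken only from probe sets brighter than the floor in knockout and wild type alike, raised every ratio by 0.15. The median of all signals was in contrast higher in the knockout, 59.9 beside 56.5 in wild type, so the shift does not show a dimmer knockout array. This alignment raised the median of all genes to 0.17 and gave 1840 higher and 1133 lower genes, so that 38.1% of these were lower. The background of 12.4% was then 19.4%. Among named genes, the median over probe sets took BACH1 to 0.57, SLC7A11 to 0.76, AARS1 to 0.19, IARS to 0.47 and GPT2 to 1.54. A floor at the 75th percentile took GPT2 to 1.00, BACH1 to 1.27 and MAFF to 2.17. Dropping shared probe sets took TRIB2 to -0.75 and SLC7A11 to 0.76. It left ASNS and 8 of the 28 named pathway genes without a value (BATF, PSAT1, SLC6A9, AARS1, MAP1LC3B, ATG12, CHAC2 and ASNSD1). Values near the floor are limited by it, and those under it, such as that of ATF3 in wild type, are replaced by it.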
